A study of Mus musculus with 6 samples.

Results

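The DNA replication machinery described here is a set of 45 mouse genes, chosen by symbol from the roles they are known for: origin licensing, the replicative helicase and its activation, the DNA polymerases, the clamp and its loader, single-strand binding, Okazaki fragment maturation and nucleotide supply. All 45 were found among the 24181 genes of the deposited count table. RNA was measured by 3'-end sequencing in cultured MC38 cells, a mouse colon adenocarcinoma line. The labels give 2 groups of 3 samples each, MC38 cells expressing STING-N153S, in which an amino acid of the innate immune adaptor STING is substituted, and parental MC38 cells, which the labels call WT. Both groups share the cell line and the growth medium, and the labels do not say how STING-N153S was introduced, under which promoter, or whether the line is 1 clone.

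Only the 3 parental libraries are described here. The count table has 6 more columns, named as 2 sets of 3, and no name tied 1 set to the 3 STING-N153S samples, so those columns were not used and no difference between STING-N153S and parental cells is given. Parental replicate 1 had a total of 3358908 counts over 16391 detected genes, replicate 2 had 4020023 over 16892, and replicate 3 had 3210024 over 16224. Of the intestinal epithelial markers, 4 of 9 were analysed and none reached 1 CPM, so these markers did not show the epithelial origin that the label gives. Mesenchymal markers were high, all 4 above 10 CPM, with Vim, which encodes the intermediate filament vimentin, at 3058 ± 176 CPM (SD, n = 3). None of the myeloid, lymphocyte and endothelial markers analysed (3, 1 and 2 genes) reached 1 CPM.

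Before a cell copies its genome, the origin recognition complex, with Cdc6 and Cdt1, loads rings of the Mcm2 to Mcm7 helicase onto DNA. Cdc45 and the GINS proteins then join each ring and switch it on, polymerases alpha, delta and epsilon copy the strands behind it, and the Pcna clamp, set in place by the RFC loader, holds the polymerases on DNA. Genes of this machinery are known as targets of E2F transcription factors in proliferating mammalian cells, and dividing tumour lines are known to keep them expressed.

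Every member was counted in each of the 3 parental libraries, the lowest count being 49. Levels are given as CPM, each gene's counts scaled to a library total of 1000000. In 3'-end libraries a transcript gives about 1 tag whatever its length, so CPM was not divided by length here, and all comparisons between genes are on this CPM scale. Over the 45 members, mean CPM and the length of the longest coding transcript (670 bases for Rpa3 to 7163 for Pole) had a Spearman rho of -0.07, given as a description. The 45 members together made up 6382, 6485 and 6446 CPM in parental replicates 1, 2 and 3, or 6438 ± 52.4 CPM (SD, n = 3).

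All 45 members averaged at least 10 CPM, a level that 31.2% of all genes in the table reached. At least 100 CPM was reached by 28 of the 45 members (62.2%), against 8.54% of all genes. The median member averaged 120.4 CPM, against 0.941 CPM over all genes in the table and 22.2 CPM over the 11118 genes with enough counts for the test between libraries. Ranked among all genes, members lay between percentiles 74.3 and 98.8 with a median of 92.8, and 31 of 45 were in the top 10%. Between the highest member, Rrm2, and the lowest, Pole, the mean level differed 34.1-fold.

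**Figure D1:**
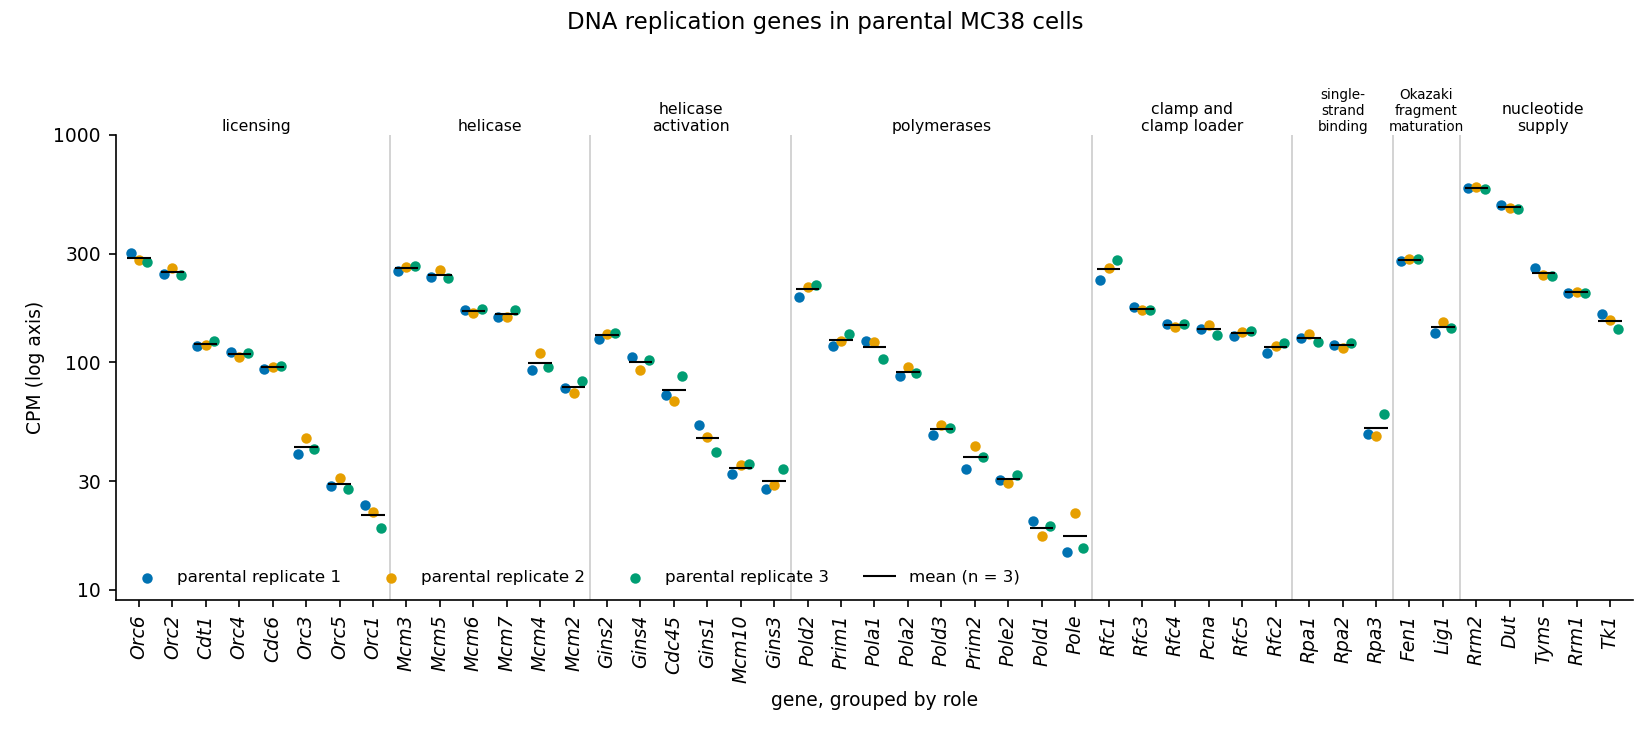
Level of each of the 45 replication genes in the 3 parental MC38 libraries, in CPM on a log axis, grouped by role. Points are single libraries and bars are means. Rrm2 and Dut stand at the top and Pole and Pold1 at the bottom, and the spread between libraries is small beside the spread between genes.

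The start regions of the members were read from RefSeq on GRCm38.p6, in windows from 250 bases before to 50 after a start, and 38 of the 45 members had 1 or more windows (46 in all). Mcm4, Gins1, Gins2, Gins4, Prim2, Pole and Rfc2 had none. An E2F-like string, taken as TTTCCCGC, TTTGGCGC, TTTCGCGC, TTTGCCGC or TTTCCCGG on either strand, was in the windows of 15 of 38 members. The 9 members with such a string within 170 bases before the start are printed here, because they show how it lies beside CCAAT, the string bound by the NF-Y factor, and Rrm2 is added as the highest member, with CCAAT and no E2F-like string. Each line gives 170 bases that end at the base before the RefSeq start, 5′ to 3′ on the gene's own strand, and capitals mark E2F-like strings and CCAAT or its reverse complement ATTGG.
Mcm5, chr8:75109339-75109508, plus strand: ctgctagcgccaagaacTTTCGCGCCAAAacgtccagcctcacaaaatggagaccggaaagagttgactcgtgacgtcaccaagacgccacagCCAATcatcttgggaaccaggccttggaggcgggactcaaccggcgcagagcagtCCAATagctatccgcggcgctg
Mcm6, chr1:128359706-128359875, minus strand: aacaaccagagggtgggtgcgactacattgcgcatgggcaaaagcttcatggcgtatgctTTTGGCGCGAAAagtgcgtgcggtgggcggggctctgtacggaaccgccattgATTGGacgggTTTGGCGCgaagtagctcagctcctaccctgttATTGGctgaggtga
Mcm7, chr5:138171884-138172053, minus strand: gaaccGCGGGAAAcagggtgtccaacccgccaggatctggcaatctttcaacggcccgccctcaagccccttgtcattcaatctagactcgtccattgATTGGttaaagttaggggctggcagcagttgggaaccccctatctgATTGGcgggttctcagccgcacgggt
Orc1, chr4:108579284-108579453, plus strand: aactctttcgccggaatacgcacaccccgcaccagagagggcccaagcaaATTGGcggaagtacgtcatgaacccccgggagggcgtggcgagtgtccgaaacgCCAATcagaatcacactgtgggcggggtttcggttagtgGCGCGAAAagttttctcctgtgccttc
Orc3, chr4:34614943-34615112, minus strand: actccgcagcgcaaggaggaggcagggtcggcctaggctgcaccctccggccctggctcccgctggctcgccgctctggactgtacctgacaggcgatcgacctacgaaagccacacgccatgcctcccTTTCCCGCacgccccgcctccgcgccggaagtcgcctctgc
Cdc6, chr11:98907981-98908150, plus strand: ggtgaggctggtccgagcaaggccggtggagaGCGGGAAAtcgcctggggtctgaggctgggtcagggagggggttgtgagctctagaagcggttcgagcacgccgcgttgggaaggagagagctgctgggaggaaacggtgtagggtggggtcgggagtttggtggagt
Gins3, chr8:95633389-95633558, plus strand: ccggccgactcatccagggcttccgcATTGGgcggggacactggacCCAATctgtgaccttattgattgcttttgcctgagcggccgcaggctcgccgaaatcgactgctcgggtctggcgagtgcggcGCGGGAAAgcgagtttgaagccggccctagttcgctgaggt
Rfc3, chr5:151651209-151651378, minus strand: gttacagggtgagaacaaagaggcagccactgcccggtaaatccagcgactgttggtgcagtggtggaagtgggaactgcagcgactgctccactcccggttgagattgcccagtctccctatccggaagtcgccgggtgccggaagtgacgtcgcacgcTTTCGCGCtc
Pola1, chrX:93632156-93632325, minus strand: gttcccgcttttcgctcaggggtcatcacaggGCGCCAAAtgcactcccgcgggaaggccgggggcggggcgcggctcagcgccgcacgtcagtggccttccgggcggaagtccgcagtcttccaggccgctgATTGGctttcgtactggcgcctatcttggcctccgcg
Rrm2, chr12:24708084-24708253, plus strand: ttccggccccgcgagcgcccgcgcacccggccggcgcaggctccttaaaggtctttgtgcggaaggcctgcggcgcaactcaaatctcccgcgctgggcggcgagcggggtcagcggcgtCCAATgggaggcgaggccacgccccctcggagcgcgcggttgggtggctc

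In Mcm5 and Mcm6, subunits of the helicase ring, an E2F-like string on each strand overlapped to give 1 longer run, centred on 149 and 145 bases before the start in Mcm5 and on 106 and 102 in Mcm6. Mcm6 had a further copy 43 bases before its start. Orc1, an ATP-binding subunit of the origin recognition complex, had its match 23 bases before the start, with CCAAT strings 63.5 and 117.5 bases before it. Rfc3, a clamp loader subunit, had 1 match 6 bases before the start and another 4 bases after it, outside the bases printed. In Orc3 and in Gins3, a subunit of the helicase activator, the match was centred 37 bases before the start, and in Cdc6 and Pola1 134 bases before it. Cdc6, the loader of the helicase, and Orc3 had no CCAAT string, whereas Pola1, the catalytic subunit of polymerase alpha, had 1 CCAAT string 34.5 bases before its start. All these distances are from the RefSeq start, and the GENCODE start of a gene can differ. In GENCODE, Cdc6 begins at 98907801 and Mcm7, on the minus strand, at 138172422, so their printed bases lie inside the gene. The E2F-like matches of Orc1, Gins3 and Rfc3 also lie after the GENCODE start. A letter match is a description of the sequence and not a measured binding site.

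Over the windows, 15 of 38 members held an E2F-like string, or 39.5% with an exact (Clopper-Pearson) 95% interval of 24.0 to 56.6%. The share was 8.36% of the 6005 genes with a window and at least 10 CPM, and 3.99% of all 27025 genes with a window. CCAAT was in 23 of 38 members, or 60.5% (95% interval 43.4 to 76.0%), against 43.5% of genes at 10 CPM or more and 41.1% of all genes. GGGCGG, the string bound by Sp1-type factors, was in 76.3% of members and in 73.3% of genes at 10 CPM or more, and TATAAA, the core of the TATA box, was in 7.89% and 8.24%. TTTGAA, one form of the cell cycle homology element, was in 13.2% of members and 14.3% of genes at 10 CPM or more. Over the first window of each gene, the median GC content was 60.7% for members. It was 61.7% for genes at 10 CPM or more and 52.7% for all genes with a window.

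**Figure D2:**
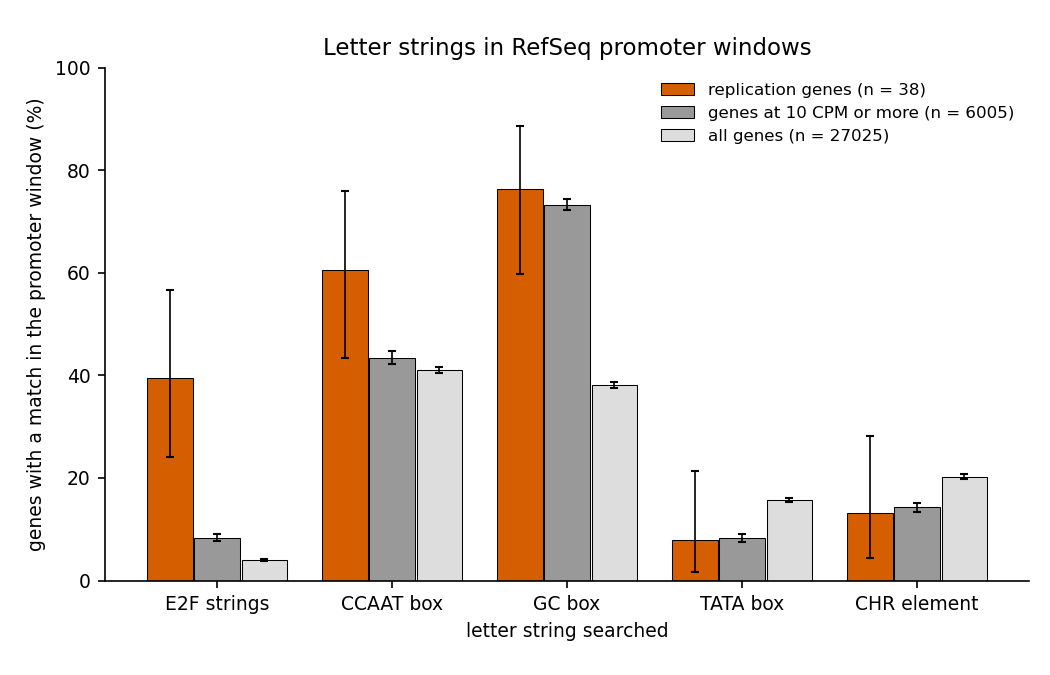
Share of genes, in percent, whose RefSeq start window holds each string, for the 38 replication genes with a window, genes of at least 10 CPM, and all genes, with exact 95% intervals as error bars. The bars labelled GC box and CHR element are GGGCGG and TTTGAA, and the E2F-like strings show the widest gap, 39.5% of replication genes against 8.36% of genes at 10 CPM or more, while GGGCGG and TATAAA are about equally frequent in both.

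The number of members with an E2F-like string differed between roles. Such strings were in 4 of 5 helicase genes (Mcm3, Mcm5, Mcm6 and Mcm7), 4 of 8 licensing genes (Orc1, Orc3, Cdc6 and Cdt1), 4 of 7 polymerase genes (Pola1, Pold1, Pold3 and Pole2), and 1 each of the clamp and loader genes (Rfc3, of 5), the activation genes (Gins3, of 3) and the Okazaki fragment genes (Lig1, of 2). None of the 3 single-strand binding genes and none of the 5 nucleotide supply genes held one, while all 5 helicase genes, all 3 activation genes with a window (Mcm10, Cdc45 and Gins3) and all 3 single-strand binding genes held CCAAT. Neither string was found for Orc5, Pola2, Rfc4, Rfc5, Fen1, Tyms, Tk1 and Dut. These counts over roles are small and were not tested.

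Of the 21 E2F-like matches in member windows, 7 lay more than 100 bases before the RefSeq start, 5 within 100 bases before it and 9 after it. Their median centre was 23 bases before it. Of the 45 CCAAT matches, 27 lay within 100 bases before the start, and their median centre was 47.5 bases before it. Both strings were in the windows of 8 members, and in 1 of these, Mcm7, an E2F-like match shared a base with CCAAT. The members with an E2F-like string had a median level of 117 CPM, and the 23 members with a window and no such string had 139.5 CPM.

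**Figure D3:**
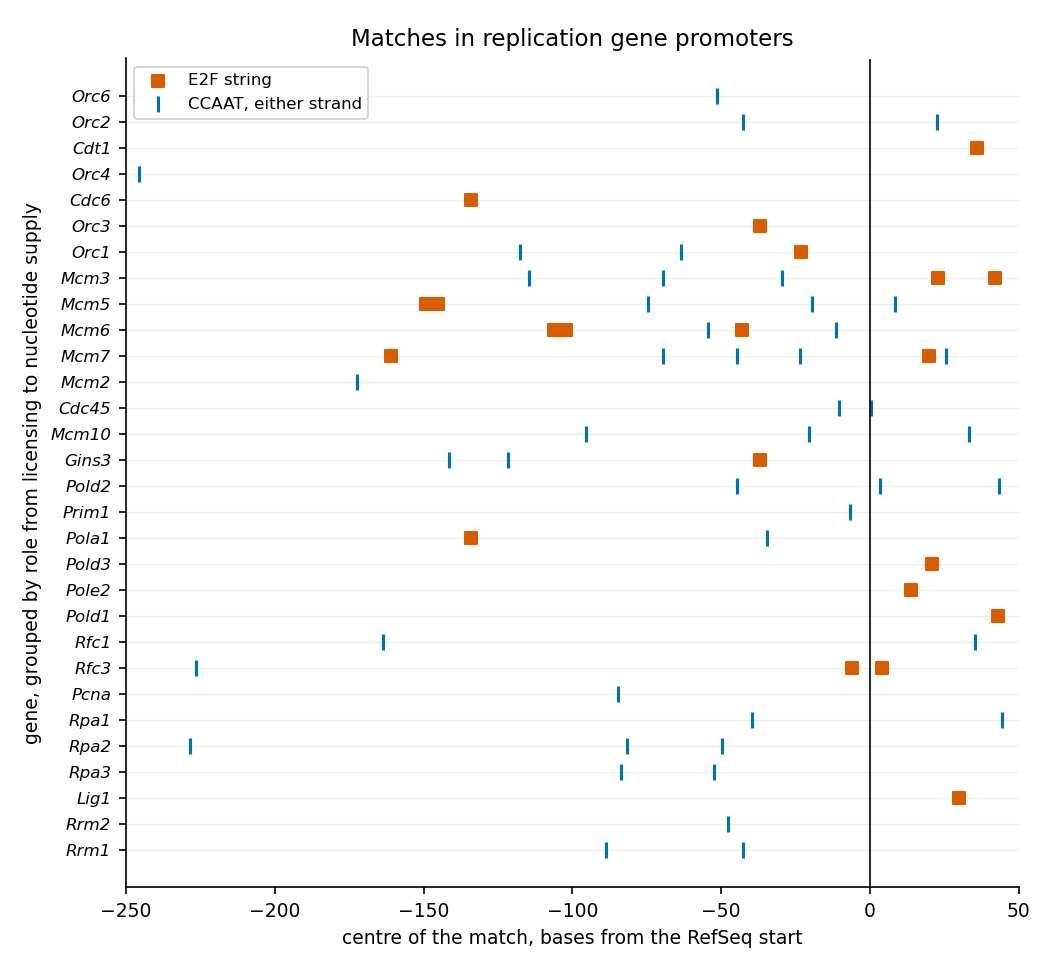
Distance of each E2F-like and CCAAT match from the RefSeq start, in bases, for the replication genes that hold one. CCAAT matches gather in the 100 bases before the start, where 27 of 45 lie, while 9 of the 21 E2F-like matches lie after the start.

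In origin licensing, the 8 genes had a median of 102 CPM. Among the 9 complexes compared, scored on subunits in the set and so without Pole3 and Pole4, the origin recognition complex was the most uneven. Orc6 (chr8:85299632-85308278, plus strand), its smallest and, in human cells, its most loosely bound subunit, had 303, 281 and 276 CPM in parental replicates 1, 2 and 3, or 287 ± 14.5 (SD, n = 3). Orc1 (chr4:108579423-108614833, plus strand), which is broken down and remade in each cell cycle in human cells, had 23.5, 21.9 and 18.7 CPM, or 21.4 ± 2.46. The counts of Orc6 were thus 12.9, 12.8 and 14.8 times those of Orc1 in the 3 libraries, with no overlap between the genes (pooled ratio 13.4, exact 95% interval 11.7 to 15.4).

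The other origin recognition subunits lay between these extremes and kept 1 order in all 3 libraries. Orc2 was near Orc6 at 249.6 ± 9.52 CPM, Orc4 stood at 109 ± 2.73, Orc3 at 42.5 ± 3.67 and Orc5 at 29.1 ± 1.75. The loaders were closer to each other, with Cdt1 at 118, 119 and 124 CPM and Cdc6 at 93.8, 95.8 and 96.6 CPM. Gmnn, whose product geminin binds and blocks Cdt1, averaged 126 ± 3.95 CPM. Cdt1 was slightly below Gmnn in all 3 libraries, with ratios of 0.971, 0.941 and 0.957, a difference within counting error, since the 95% interval of the pooled ratio was 0.884 to 1.03.

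The 6 helicase subunits, which form a ring with 1 copy of each, had a median of 166 CPM and spanned a 3.36-fold range (SD 0.203, n = 3). Mcm3 (chr1:20802968-20820312, minus strand) was highest, with 252, 263 and 265 CPM, and Mcm5 followed with 238, 254 and 235 CPM. Mcm2 (chr6:88883474-88898780, minus strand) was lowest, with 76.8, 73.1 and 82.6 CPM. All 3 libraries gave the order Mcm3, Mcm5, Mcm6, Mcm7, Mcm4, Mcm2.

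Mcm6 and Mcm7 could not be separated beyond counting error. Mcm6 had 169.7, 165 and 171 CPM and Mcm7 had 158, 158 and 171 CPM, and the pooled ratio of 1.04 had a 95% interval of 0.972 to 1.11. Mcm4 averaged 99.3 ± 9.33 CPM, with replicate 2 highest at 110.0 CPM. The Mcm7 value carries a limit of its own, since Cops6, a gene of the COP9 signalosome at 360 CPM, overlaps its end on the other strand.

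The helicase activators were lower, with a median of 61.0 CPM over 6 genes. Gins2 led them with 127, 133 and 134 CPM, and Gins3 (chr8:95633453-95645060, plus strand) was lowest with 27.7, 28.9 and 34.0 CPM. The 4 GINS proteins form a complex with 1 copy of each, and their counts spanned a 4.38 ± 0.371-fold range (95% interval of the pooled ratio 3.87 to 4.96). Gins4 averaged 100.3 ± 6.66 CPM and Gins1 46.6 ± 6.40 CPM, so all 4 kept their order in all 3 libraries.

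Cdc45, which joins the helicase ring together with GINS, had 71.5, 67.9 and 86.9 CPM, with replicate 3 above the others. Mcm10, which takes part in helicase firing, was steadier at 32.2, 35.3 and 35.8 CPM. Both lay below Gins2, whose counts were 1.76 ± 0.210 times those of Cdc45.

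The 9 polymerase genes had the lowest median of the roles, 50.9 CPM, and held the pair of lowest members. Pole (chr5:110286306-110337474, plus strand), the catalytic subunit of polymerase epsilon, known in yeast for copying the leading strand, had 14.6, 21.6 and 15.3 CPM, or 17.2 ± 3.89 (SD, n = 3). Pold1 (chr7:44532746-44548849, minus strand), the catalytic subunit of polymerase delta, known in yeast for copying the lagging strand, had 19.9, 17.2 and 19.0 CPM, or 18.7 ± 1.42. The ranges overlapped, and the pooled ratio of Pold1 to Pole, 1.06, had a 95% interval of 0.867 to 1.31.

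Pola1 (chrX:93304767-93632155, minus strand), the catalytic subunit of polymerase alpha, which starts each new strand with primase, stood well above both. It had 124, 123 and 104 CPM, or 6.27 ± 0.845 times the counts of Pold1 and 6.98 ± 1.41 times those of Pole. Among the catalytic subunits of the 3 polymerases, the initiating one was therefore the highest in every library. Prim1, the catalytic subunit of primase, had 118, 124 and 134 CPM, which overlapped Pola1. Its partner Prim2 averaged 38.3 ± 4.42 CPM, and the accessory subunit Pola2 90.4 ± 4.41 CPM.

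The accessory subunit of polymerase delta went the other way from its catalytic partner. Pold2 had 194, 214 and 219 CPM, and its counts were 9.73, 12.5 and 11.5 times those of Pold1 in the 3 libraries (pooled ratio 11.3, 95% interval 9.73 to 13.1). Pold3, another accessory subunit, averaged 50.9 ± 2.69 CPM. Pold4, the smallest delta subunit and no member of the set, averaged 38.2 ± 2.00 CPM. In polymerase epsilon, Pole2 had 30.4, 29.4 and 32.1 CPM, 1.85 ± 0.425 times Pole. Gm49384 overlaps the end of Pole2 on the same strand, and its effect on these counts was not tested. The small histone-fold subunits of polymerase epsilon, Pole3 and Pole4, which are also not in the set, were higher, at 271 ± 7.36 and 154 ± 2.21 CPM, and the counts of Pole3 were 16.3 ± 3.25 times those of Pole.

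The clamp and its loader were the most even of the large groups, with all 6 genes above 100 CPM and a median of 143 CPM. Pcna (chr2:132249162-132253314, minus strand), the sliding clamp, had 140.2, 146 and 132 CPM. Rfc1 (chr5:65261850-65335670, minus strand), the large loader subunit, was highest with 229, 261 and 283 CPM. Rfc2 (chr5:134581366-134601805, plus strand) was lowest with 110.2, 118 and 122 CPM.

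The 5 loader subunits, which form a complex with 1 copy of each, spanned a 2.20 ± 0.118-fold range, and kept the order Rfc1, Rfc3, Rfc4, Rfc5, Rfc2 in all 3 libraries. Rfc3, Rfc4 and Rfc5, which form the core of the loader with Rfc2, averaged 172 ± 2.77, 146 ± 2.94 and 135 ± 3.60 CPM. The ends of Rfc4 and Rfc5 are overlapped on the other strand by Eif4a2 (72.3 CPM) and Wsb2 (99.6 CPM).

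Replication protein A, which coats single-stranded DNA as a trimer, had its large and middle subunits at similar levels and its small subunit lower. Rpa1 had 127, 134 and 123 CPM and Rpa2 had 119, 115 and 122 CPM, which do not overlap but differ by a pooled ratio of only 1.08 (95% interval 1.00 to 1.17). Rpa3 (chr6:8255936-8259173, minus strand) had 48.2, 47.3 and 59.2 CPM, and Rpa1 was counted 2.52 ± 0.394 times as often. Of the Okazaki fragment genes, Fen1, the flap nuclease, had 280.4, 284 and 283 CPM and Lig1, the ligase that seals the nicks, had 135, 151 and 141 CPM. Fen1 was thus the higher by 1.99 ± 0.102.

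Nucleotide supply had the highest median, 247 CPM over 5 genes. Rrm2 (chr12:24708241-24714146, plus strand), the small subunit of ribonucleotide reductase, whose protein is known to be made in S phase and removed in mitosis, was the highest of all members with 585, 593 and 578 CPM. Rrm1, the large subunit, had 203, 204 and 203 CPM. Its SD of 0.553 CPM was the smallest of any member, but lay under the 7.62 CPM that its counts alone give. The ratio of Rrm2 to Rrm1 was 2.89, 2.91 and 2.85 in the 3 libraries. Rrm2b, the p53-inducible small subunit that is no member, averaged 12.9 ± 0.657 CPM, so the counts of Rrm2 were 45.3 ± 2.22 times higher.

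Dut, which hydrolyses dUTP so that uracil stays out of DNA, had 493, 477 and 471 CPM. Tyms, which makes thymidylate, had 259, 243 and 239 CPM, and Dut was 1.94 ± 0.0372 times as high. Tk1 (chr11:117815526-117826092, minus strand), the cytosolic thymidine kinase of cycling cells, was the lowest of the 5 with 163, 154 and 141 CPM. Its mitochondrial counterpart Tk2 averaged 7.63 ± 1.24 CPM, and Tk1 was counted 20.3 ± 3.05 times as often.

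**Figure D4:**
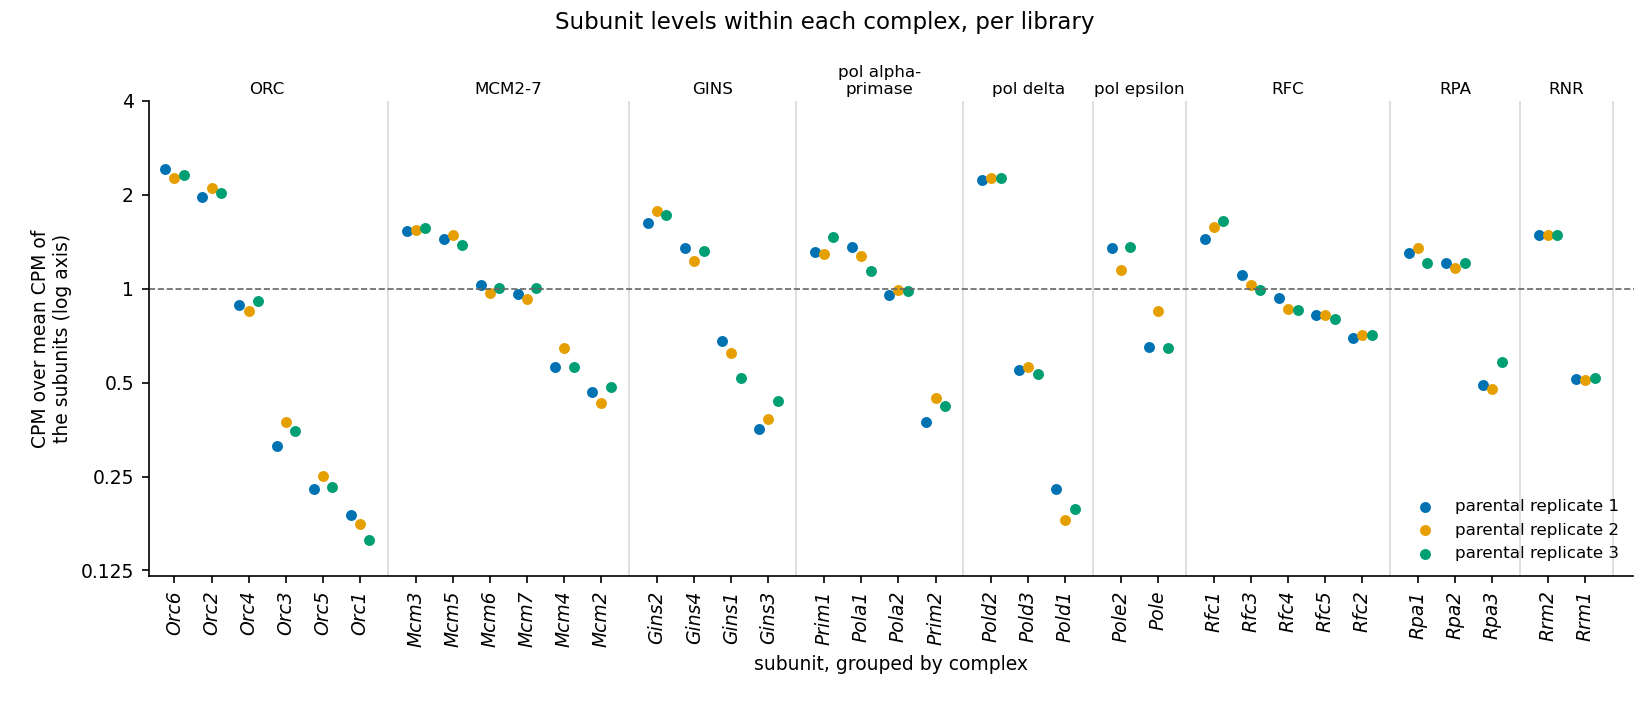
CPM of each subunit over the mean CPM of the subunits of its complex, on a log axis, for 9 replication complexes, with 1 point for each parental MC38 library and a dashed line at equality. By the ratio of the highest to the lowest subunit in the set, the origin recognition complex (13.5-fold) and polymerase delta (11.3-fold) are the widest. The clamp loader (2.20-fold) and polymerase epsilon (1.85-fold) are the narrowest, the latter scored on Pole and Pole2 alone. Pole3, which is outside the set, was counted 16.3 times as often as Pole.

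Of 24 pairs of subunits next to each other within a complex, 23 were ordered alike in all 3 libraries, and 2 had a pooled interval that included equality, Mcm6 with Mcm7 and Prim1 with Pola1. Over the 45 members ranked by mean CPM, where neighbours lie closer together, 16 of the 44 adjacent pairs were ordered alike in all 3 libraries and 28 were not. Rrm2 led and Dut followed in each library, while Orc6 was above Fen1, the next by mean CPM, in only 1 of the 3 libraries.

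The highest library was above the lowest by a median of 1.11-fold over the 45 members (range 1.00 to 1.48), against 1.22-fold over the 11118 genes tested. A ratio under 1.2 was found for 37 of 45 members (82.2%), against 47.7% of the genes tested. Most of these genes have fewer counts than the members, and among genes of at least 100 CPM the median was 1.08-fold both for the 28 members and for all 2064 genes, with 96.4% and 93.1% under 1.2. The median coefficient of variation was 5.10% for members and 10.2% for genes tested, and at 100 CPM or more it was 4.05% and 4.20%. Of the 45 members, 22 had an SD no larger than the one their counts alone give, and 23 had a larger one. This count was not made for the other genes, so no comparison is drawn from it. No library was high or low throughout, since replicates 1, 2 and 3 held the highest value of 12, 15 and 18 members and the lowest of 20, 12 and 13.

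By a chi-square test of counts between the 3 libraries, with Benjamini-Hochberg adjustment over all genes tested, 1 of 45 members (2.22%) varied beyond counting error, against 2.80% of genes tested. That member was Rfc1, with 229, 261 and 283 CPM, a 1.23-fold range (adjusted p = 0.0101). At an unadjusted chi-square p under 0.05, 5 of 45 members (11.1%) passed, against 13.2% of genes tested, namely Rfc1, Cdc45 (p = 0.00834), Pola1 (p = 0.0280), Pole (p = 0.0458) and Gins1 (p = 0.0489). Both shares are near those of the genes tested. Among genes of at least 100 CPM, which have the counts to show small differences, 1 of 28 members (3.57%) and 209 of 2064 genes (10.1%) varied. The call of Rfc1 was lost without replicate 1 and also without replicate 3. No member then varied by the chi-square test (4 and 3 members at an unadjusted p under 0.05). Calls also fell over all genes tested, to 1.92% without replicate 1 and 0.548% without replicate 3. The loss of the call is therefore not particular to Rfc1.

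**Figure D5:**
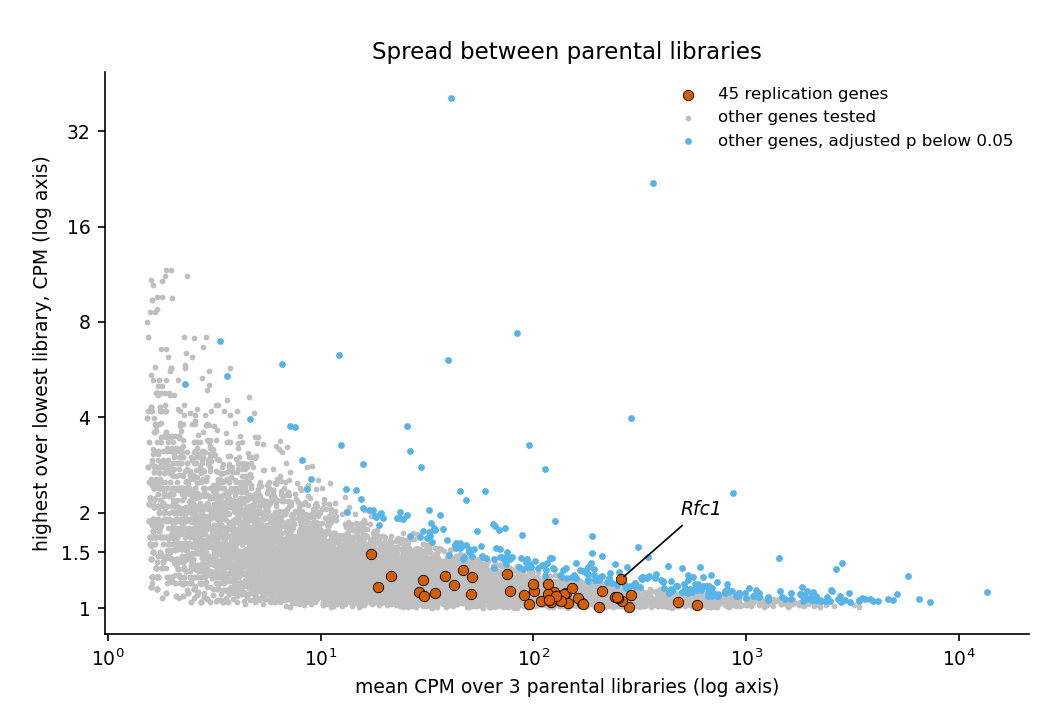
Ratio of the highest to the lowest parental library against mean CPM, on log axes, for the 45 replication genes and the other genes tested, each point being 1 gene, with other genes of adjusted p below 0.05 in blue. All 45 replication genes lie under 1.5-fold, most of them under 1.2-fold, and Rfc1 is the one that passed the test, while 4 genes tested with a library at 0 are not drawn.

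Other genes of DNA replication, a list of 50 that act around the machinery, were also all counted, with a median of 71.2 CPM. Of these, 43 reached 10 CPM and 18 reached 100 CPM. Nme1, a nucleoside diphosphate kinase, was highest at 1334, 1344 and 1326 CPM, followed by the topoisomerases Top2a at 495 ± 25.3 and Top1 at 349 ± 40.9 CPM. The lowest was Chtf8, part of an alternative clamp loader, at 2.40 ± 1.00 CPM. By the chi-square test, 2 of 50 varied between libraries. Top1 had 303, 362 and 382 CPM (adjusted p = 4.51e-05), and Topbp1, which helps to activate the helicase, had 98.8, 110.4 and 81.9 CPM (adjusted p = 0.0351).

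Of the E2F, retinoblastoma and G1 cyclin regulators, 31 of 32 listed genes were analysed, with a median of 58.2 CPM, and 28 reached 10 CPM. Ccnd1, encoding cyclin D1, was highest at 899.7, 861 and 945 CPM, and was the 1 gene of this list that varied between libraries (adjusted p = 0.0161 by the chi-square test). Its kinase partner Cdk4 averaged 822 ± 14.3 CPM, 9.19 ± 0.772 times the counts of Cdk6. Ccna2, the S-phase cyclin, averaged 226 ± 12.6 CPM and E2f1, an activating E2F, 137 ± 10.3 CPM. Rb1, the retinoblastoma repressor of E2F, was the lowest at 3.27, 2.74 and 1.87 CPM. These values rest on 11, 11 and 6 counts, so depth limits them. An E2F-like string was in the windows of 9 of 24 of these genes (37.5%) and of 9 of 41 of the other replication genes (22.0%).

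The positions of the members bear on how their tags can be read. A gene on the opposite strand overlapped the last 400 bases of 10 members, and the sources used here do not say whether the counting used strand. The most highly counted of these were Cops6, Wsb2 and Eif4a2 beside Mcm7, Rfc5 and Rfc4, then Nif3l1 (53.0 CPM) beside Orc2 and Acvr2a (11.7 CPM) beside Orc4, and the rest were lower. A gene on the same strand overlapped the end of Cdt1 (Gm20388) and of Pole2 (Gm49384). Near-identical copies of the 3' end, over at least 100 bases at 95% identity or more, were found for 6 members. The pseudogene Gm5487 matched all 400 bases of Mcm7 at 98.8% identity with 0.646 CPM of its own, and Tyms-ps matched 221 bases of Tyms with 4.55 CPM, so reads shared with these copies leave both genes uncertain by an amount that was not tested. Rrm2 had a pair of shorter matches, Pole2 had 1 to Gm49384, and Mcm5 and Pola2 shared short stretches with 8 and 134 genes. The most highly counted of these were Glmp (68.2 CPM) for Mcm5, and Cct6a (997 CPM) and Ctsl (890 CPM) for Pola2. Reads shared with such genes could also affect Mcm5 and Pola2, which was not tested.

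Some members share their start region with a neighbour. A protein-coding gene began within 1000 bases on the other strand, pointing away, at 7 of 45 members (15.6%), against 6.79% of all 21951 protein-coding genes of the GENCODE annotation. That background includes genes not expressed here. The share was not counted among genes at 10 CPM or more, so nothing particular to the members is drawn from it. Mcm4 averaged 99.3 ± 9.33 CPM, against 2.61 ± 0.642 CPM for Prkdc, the gene of a DNA repair kinase that begins 466 bases away. Pole averaged 17.2 ± 3.89 CPM, against 4.40 ± 0.939 CPM for Pxmp2, 120 bases away. At Orc1 the order was turned, with 21.4 ± 2.46 CPM for Orc1 and 190.3 ± 7.63 CPM for Prpf38a, a splicing factor gene 87 bases away. Gins1 was also below its neighbour, with 46.6 ± 6.40 CPM against 114 ± 4.49 CPM for Abhd12, whereas Rpa1 and Rpa3 were above Smyd4 (5.02 ± 0.318 CPM) and Umad1 (14.3 ± 1.44 CPM). Orc3 and Rars2, 13 bases apart, were at similar levels, 42.5 ± 3.67 and 40.0 ± 5.02 CPM.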

How the data were processed

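RNA of MC38 cells was turned into cDNA with barcoded oligo-dT primers carrying molecular identifiers, and 3'-end fragments were amplified and sequenced, per the labels' protocols. The authors deposited a table of raw counts, whole numbers for each gene. Per the file headers, untrimmed reads were aligned to GRCm38 with STAR 2.7.5b, GENCODE M25 was the annotation, and Picard 2.18.26 and Drop-seq tools 1.12 were also used. The sources used here do not say if molecular identifiers were used to collapse the counts, if strand was used, or what was done with reads that match several genes, so intervals cover counting error only. If counts were not collapsed, amplification adds to the spread.

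The columns named as wild type, numbered 1 to 3, were matched to the 3 parental samples. Another 6 columns of per-sample values could not be matched to samples and were not used. The planned comparison of STING-N153S with parental cells by edgeR's quasi-likelihood test was therefore not run. Nothing in the labels says that the libraries came from separate cultures, though the deposited annotation calls them biological replicates, so p-values measure only the spread between these samples, which may be technical. Members, lists, tests and strings were chosen with earlier results of these data known.

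CPM are counts scaled to a library total of 1000000, and 3 counts correspond to 0.893, 0.746 and 0.935 CPM in parental replicates 1 to 3. Counts of a gene were compared between libraries with a chi-square test, expected values following median-ratio scaled sizes. Genes entered if every expected count was 5 or more, with Benjamini-Hochberg adjustment over all 11118 genes tested and a false discovery rate of 0.05. Counts were pooled over the libraries for the 95% interval (exact, Clopper-Pearson) of a ratio of genes. The edgeR common biological coefficient of variation over the 3 libraries was 0.0552. All 45 members are reported, in full where they lead or close their role by mean CPM or passed the test; of the other lists, the 3 highest genes, the lowest and those past the test are named, and further genes were named as partners of a member after their values were seen. Positions, 3' ends and neighbouring starts come from GENCODE M21, and start windows from RefSeq on GRCm38.p6, matched by symbol. Alternatives changed the scaling, the minimum count, the libraries included, the window and the strings. Scripts ran in R 4.3.3 (edgeR 4.0.16, DESeq2 1.42.0) and Python 3.11.15, with BLAST 2.17.0, scipy 1.17.1, pandas 2.3.3, numpy 2.4.6 and matplotlib 3.10.9.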

Additional observations from a re-analysis of the deposited data

How the results depend on the processing

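Leaving the 20 highest genes out of the library totals raised the median level of the members to 134 CPM, against 121 CPM with full totals, and moved 37 of 45 members up by more than 1 SD. Smaller totals raise the CPM of every gene by nearly the same factor, a median of 1.10 over the members. Whether a member passed 1 SD thus depended on the size of its SD. TMM sizes and median-ratio sizes kept all 45 members within 1 SD. Leaving out 1 of 3 libraries cannot move a mean by 1 SD, so nothing about the levels is drawn from that setting. The number of members varying between libraries was 1 with library totals, TMM factors, a minimum expected count of 20 or no minimum, and ranged from 0 to 1 when 1 library was left out. Without parental replicate 1 or 3 it was 0 by the chi-square test, with 4 and 3 members at an unadjusted p under 0.05. The smallest adjusted p by that test was 0.119 (Cdc45) and 0.385 (Rfc1). Over all genes tested, 213 of 11090 (1.92%) varied without replicate 1 and 61 of 11126 (0.548%) without replicate 3. The share of all genes at an unadjusted p under 0.05 was not counted in these settings. The share of the 38 members with an E2F-like string was 31.6% in the window from 100 bases before to 50 after the start. It was 34.2% with TTTCCCGC and TTTGGCGC alone, and 36.8% in the first window of each gene, a choice added after seeing the data. The median of the 9 complex ratios was 3.06 to 3.25 with 1 library left out.

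No paired analysis was possible because only 1 group was mapped to columns. For the same reason the comparison of STING-N153S with parental cells was not run under any setting (replicate block, DESeq2, other scaling or filter, leaving out replicates). Protein identity within families was not computed. Depth limits Pole and Pold1, whose ranges overlap at fewer than 100 counts a library, and counts of roles with an E2F-like string rest on 2 to 8 genes each.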
